A study of Mus musculus with 59 samples.

Results

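The comparison described here set 10 prefrontal cortex libraries of HT-labelled mice given lithium against 10 libraries of HT-labelled mice given vehicle, with 5 females and 5 males in each group and sex as a block. The 20 libraries were chosen by genotype and treatment label alone and are part of a series of 59. All mice were C57BL/6J, were analysed on postnatal day 25 and had been exposed to the drug or vehicle through the milk of their mothers from day 3 to day 24. HT is the label of mice given as heterozygous for the Chd8-S62X allele, so that both groups carry it by label, and the gene encodes a chromodomain helicase in which mutations cause autism. The 10 WT-labelled lithium libraries, the 10 WT-labelled vehicle libraries and the 9 HT-labelled fluoxetine libraries served for further comparisons. A pup's exposure depended on its dam, yet neither dams nor litters can be read from the labels, nor whether each library is a separate mouse. All p-values treat libraries as independent and measure the spread between these samples alone.

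Lithium inhibits inositol monophosphatase, which releases free inositol for the phosphatidylinositol signalling cycle, and glycogen synthase kinase 3 (GSK3), which marks β-catenin for destruction. When β-catenin is spared, it enters the nucleus and acts with TCF/LEF factors on Wnt target genes. Neurons of the cortex use both pathways, and also adjust protein synthesis through mTORC1, which senses amino acids, and through the endoplasmic reticulum (ER) stress response, which raises chaperones when secretory proteins need more folding capacity. Throughout, a level is a normalized count, a difference is lithium minus vehicle on the log2(normalized count + 1) scale with its SE, and a gene is called when its limma p, adjusted by Benjamini-Hochberg over 16839 tested genes, is under 0.05.

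Normalized counts summed to 30.3 to 33.5 M in the 20 libraries, and the original depth is unknown. Groups keep their labels, although the genotype labels went against the RNA of the mutated gene: Chd8 was at 5115 or more in each of the 29 HT-labelled libraries and at 4229 or less in each of the 30 WT-labelled ones. Between the lithium and the vehicle groups Chd8 was not called (difference 0.09 ± 0.047, limma adjusted p = 0.492). Excitatory neuron markers, 8 genes including Slc17a7, summed to between 133474 and 199670 in HT lithium libraries and between 125294 and 210239 in HT vehicle libraries. The dissections also held other tissue. The summed level of 13 striatal markers ran from 8067 to 17000 (median 8624) in HT lithium libraries and from 6599 to 23473 (median 7650) in HT vehicle libraries. HT lithium female 5, male 1 and male 4 and HT vehicle female 3 lay over 5 robust SDs above the series median for this list; with 3 libraries of other groups they are called striatal-rich here. The 11 markers of olfactory bulb granule cells and neuroblasts summed to between 8377 and 44294 in HT lithium libraries and between 8155 and 58172 in HT vehicle libraries. The 6 markers of its mitral cells summed to between 936 and 9514 (median 2541) in HT lithium libraries and between 677 and 11322 (median 2787) in HT vehicle libraries. Of the tested markers, 12 of 12 striatal ones had a positive difference (median 0.21), 11 of 11 granule cell and neuroblast ones a negative one (median -0.29), 4 of 5 mitral ones a negative one (median -0.12), 12 of 12 meningeal ones a negative one (median -0.18) and 5 of 5 blood ones a negative one (median -0.22). None of these markers was called, and none of these 5 lists had a marker at 0 throughout a group. In such bulk tissue fewer cells of a type and less RNA per cell cannot be told apart.

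**Figure D1:**
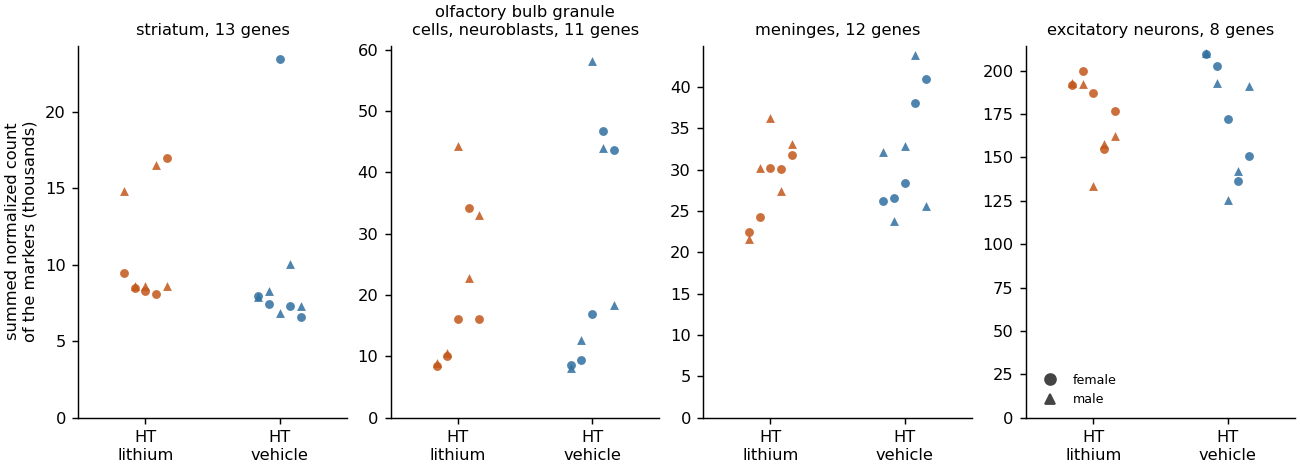
Summed normalized counts of 4 marker lists in each HT library, on vertical axes divided by 1000; circles are females and triangles males, with lithium left of vehicle in each panel. The striatal panel shows 3 lithium libraries and 1 vehicle library far above the others, and the medians of all 10 libraries are 8624 in lithium and 7650 in vehicle; the olfactory bulb panel, of granule cell and neuroblast markers, shows a wide spread in both groups.

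Lithium was associated with small changes in few genes. Of 16839 genes tested, 40 were called (0.238%), 25 higher (0.148%) and 15 lower (0.0891%) in lithium libraries. The median difference of all genes was 0.0018, and the differences of the called genes had sizes between 0.12 and 0.62. At an unadjusted limma p under 0.05 there were 1710 genes (10.2%), 971 higher (5.77%) and 739 lower (4.39%). The 2 groups did not overlap in any library for 4 genes of all those tested (0.0238%), and all 4 were called: Trappc3 and Narfl lay higher and Ctnnb1 and Ncl lower in every HT lithium library than in any HT vehicle library. The call threshold cut through a dense stretch of the ranking: 11 of the 40 had an adjusted p within 1% of the threshold, and Tug1, at 0.0505, was the first gene outside. The count also rested on the other groups: a fit of the 20 libraries alone called 0 genes, with 1460 at an unadjusted p under 0.05, and Ctnnb1 then had an adjusted p of 0.0838.

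**Figure D2:**
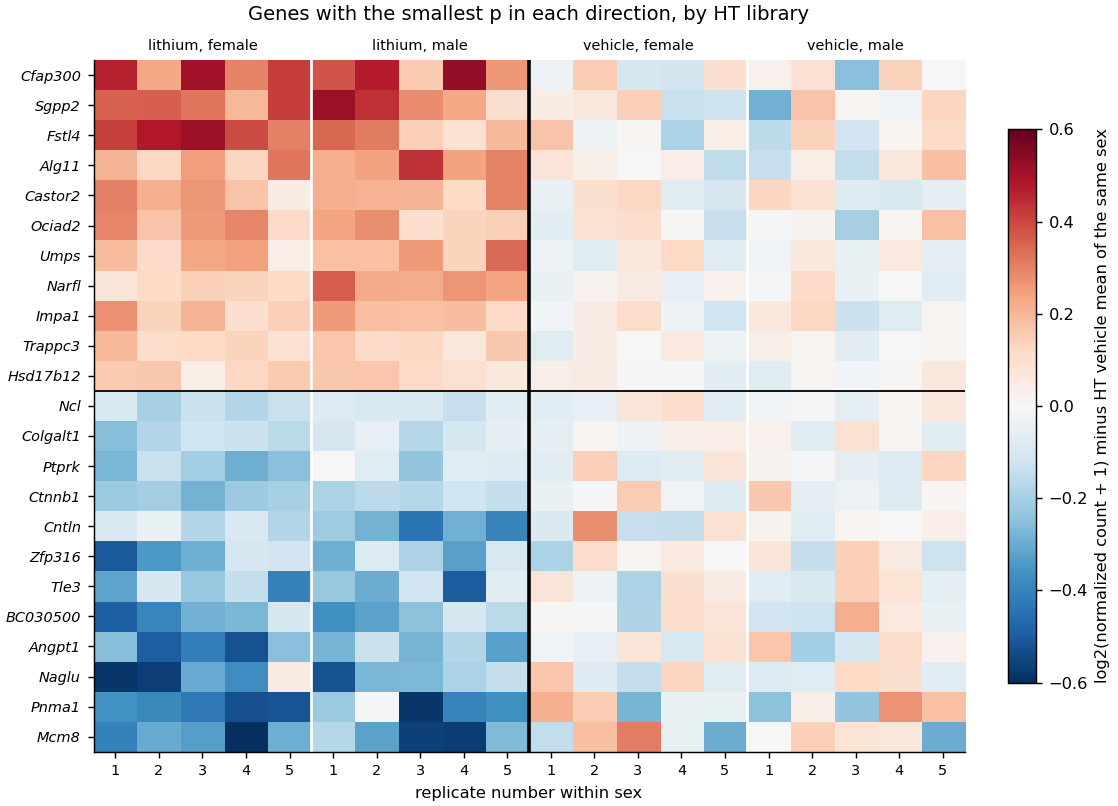
Log2(normalized count + 1) of 11 higher and 12 lower genes among those with the smallest p, in each HT library, minus the mean of HT vehicle libraries of the same sex; columns are libraries, lithium left of vehicle, and genes run from the most positive to the most negative difference. The darkest colours hold values at or beyond the ends of the scale; the lithium side is mostly of a single colour along each gene in both sexes, while the vehicle side mixes both.

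A known target of lithium was higher at the RNA level. Impa1, which encodes inositol monophosphatase and lies at chr3:10311956-10331439 on the minus strand of GRCm38, was among the called genes. Its level ran from 2224 to 2558 (median 2331) in HT lithium libraries and from 1876 to 2287 (median 2084) in HT vehicle libraries. It was above every vehicle library in 8 of the 10 lithium libraries. Impa1 rose by 0.18 ± 0.036 (limma adjusted p = 0.0162), a linear increase of 13.1%, with 0.17 in females and 0.18 in males. Slc5a3, the sodium-driven transporter that brings inositol into cells, had levels of 945 to 1268 (median 1086) in HT lithium libraries and 833 to 1033 (median 969) in HT vehicle libraries. Its difference of 0.18 ± 0.051 was not called (limma adjusted p = 0.124). Bpnt1, a nucleotidase of the same lithium-sensitive phosphatase family, had a difference of 0.08 ± 0.032 (limma adjusted p = 0.367). The paralogue Impa2 (-0.09 ± 0.206), the inositol synthase Isyna1 (-0.03 ± 0.070) and the polyphosphate phosphatase Inpp1 (0.01 ± 0.082) had differences within 1 SE of 0; these 3 were named after their values were seen. Of 41 inositol cycle genes in the table, 39 were tested: 20 had positive and 19 negative differences, the median was 0.00036, and 3 (7.69%) were higher and 0 lower at an unadjusted p under 0.05. Impa1, Slc5a3 and Bpnt1 were those 3, and the share of the list lay close to that of all genes (5.77%).

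**Figure D3:**
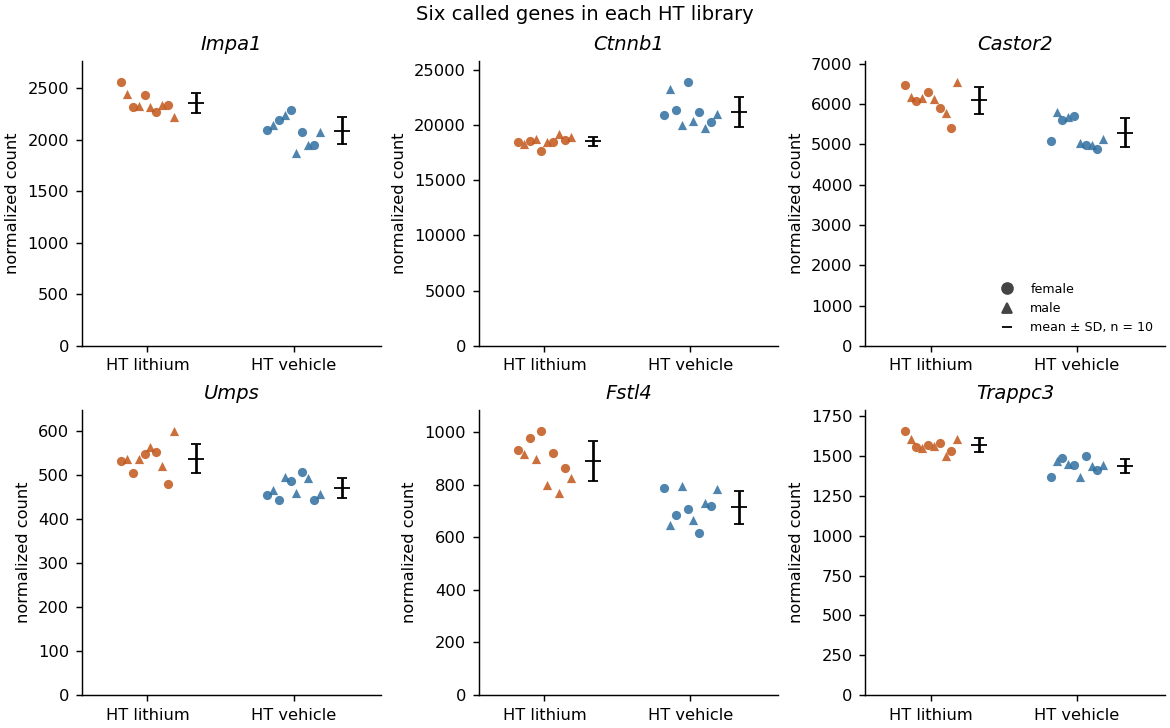
Normalized counts of 6 called genes in each HT library; circles are females, triangles males, and the black bar is the mean ± SD of 10 libraries, with lithium left of vehicle. For Ctnnb1 all lithium libraries, at 17633 to 19217, lie below all vehicle libraries, at 19743 to 23890; for Trappc3 all lithium libraries, at 1502 to 1657, lie above all vehicle libraries, at 1367 to 1501.

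Of the GSK3 branch, β-catenin mRNA itself was lower. Ctnnb1 (chr9:120929216-120960507, plus strand, GRCm38) had the smallest p of all genes. Its level ran from 17633 to 19217 (median 18544) in HT lithium libraries and from 19743 to 23890 (median 20964) in HT vehicle libraries, without overlap. Ctnnb1 fell by 0.19 on the log2 scale (SE 0.032, limma adjusted p = 0.0035), by 0.23 in females and 0.16 in males, a linear change of -12.4%. The gene shares 759 of its 5192 exonic bases with Ulk4 on the other strand; the kit keeps strand, and whether the counting used it is not given in the sources used here. Frat1 and Frat2, which encode proteins that bind GSK3 and keep it from β-catenin, had differences of -0.33 ± 0.105 (limma adjusted p = 0.205) and -0.24 ± 0.096 (limma adjusted p = 0.331). Frat1 ran from 102 to 204 in HT lithium libraries and from 150.1 to 264 in HT vehicle libraries, and the groups overlapped. The kinase genes themselves had differences near 0, with 0.04 ± 0.039 for Gsk3b and -0.04 ± 0.048 for Gsk3a. Btrc and Fbxw11, the F-box proteins that recognise phosphorylated β-catenin, had differences of 0.09 ± 0.037 and 0.08 ± 0.032, neither called. Of the 24 genes of GSK3 and the β-catenin destruction machinery, 12 had positive and 12 negative differences (median 0.0007), 1 was called, and 2 (8.33%) were higher and 4 (16.7%) lower at an unadjusted p under 0.05, against 5.77% and 4.39% of all genes.

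Genes that β-catenin and TCF/LEF factors act on had differences in both directions, more of them negative. Of 22 listed targets 20 were tested, 5 with positive and 15 with negative differences (median -0.10), and none was called. Of all genes 50.9% had a positive difference. Ccnd1, the cell cycle regulator cyclin D1, had levels of 1504 to 1904 (median 1628) in HT lithium libraries and 1220 to 1613 (median 1424) in HT vehicle libraries, a difference of 0.22 ± 0.062 (limma adjusted p = 0.124). Lef1, a TCF/LEF factor that is also abundant in thalamus, had a difference of -0.23 ± 0.089 (limma adjusted p = 0.315). The thalamic markers summed to between 3811 and 8736 in HT lithium libraries and between 3615 and 10837 in HT vehicle libraries, and their part in the value of Lef1 was not tested. Axin2, a widely used readout of this pathway, differed by less than 0.01 in size with an SE of 0.055. Tle3, a co-repressor that binds TCF/LEF factors, was called: it ran from 1544 to 2101 (median 1820) in HT lithium libraries and from 1797 to 2429 (median 2116) in HT vehicle libraries and fell by 0.24 (SE 0.053, limma adjusted p = 0.0269). The 2 groups overlapped for Tle3, with 5 of 10 lithium libraries below every vehicle library.

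Among the amino acid sensors upstream of mTORC1, Castor2 was higher. Castor2 (chr5:134099711-134144343, plus strand, GRCm38) encodes a partner of the arginine sensor that restrains mTORC1. Its level ran from 5414 to 6544 (median 6137) in HT lithium libraries and from 4885 to 5809 (median 5100) in HT vehicle libraries. It rose by 0.21 ± 0.035 (limma adjusted p = 0.0035), by 0.20 in females and 0.21 in males, and 8 of 10 lithium libraries lay above every vehicle library. Sesn2, a leucine sensor of the same pathway, had levels of 386 to 519 (median 428) in HT lithium libraries and 318 to 428 (median 360) in HT vehicle libraries, with a difference of 0.23 ± 0.066 (limma adjusted p = 0.15). Rragb, a GTPase that recruits mTORC1 to lysosomes, had a difference of 0.13 ± 0.042 (limma adjusted p = 0.193). Of the 40 tested genes of amino acid sensing and mTORC1, 26 had positive differences (median 0.026), and 10 (25%) were higher and 0 lower at an unadjusted p under 0.05, against 5.77% and 4.39% of all genes. With the striatal-rich libraries left out, 9 of the 40 were higher at that p.

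The genes that Atf4 and amino acid shortage switch on lay partly on the same side. Atf4 itself ran from 3182 to 3729 (median 3332) in HT lithium libraries and from 2763 to 3572 (median 3088) in HT vehicle libraries, a difference of 0.15 ± 0.038 (limma adjusted p = 0.0637). The isoleucyl-tRNA synthetase gene Iars (0.13 ± 0.035, limma adjusted p = 0.117) and Chac1, which degrades glutathione (0.28 ± 0.085, limma adjusted p = 0.165), had positive differences that were not called. In this list 32 of 43 tested members had positive differences (median 0.038), and 0 were called. At an unadjusted p under 0.05, 8 (18.6%) were higher and 1 (2.33%) lower, against 5.77% and 4.39% of all genes. Sesn2 is counted in both lists. Phgdh, the entry enzyme of serine synthesis and a known Atf4 target, was the lower one.

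Umps, which carries out the final steps of uridine monophosphate synthesis, ran from 479 to 599 (median 535) in HT lithium libraries and from 443 to 506 (median 462) in HT vehicle libraries. It rose by 0.19 ± 0.035 (limma adjusted p = 0.00665), and 8 of 10 lithium libraries lay above every vehicle library. Of 25 tested genes of pyrimidine metabolism, Umps was the only one higher (4%) and 2 (8%) were lower at an unadjusted p under 0.05, against 5.77% and 4.39% of all genes. The lower ones were the dUTPase gene Dut (-0.15 ± 0.047, limma adjusted p = 0.193) and the nucleoside diphosphate kinase gene Nme2 (-0.12 ± 0.050, limma adjusted p = 0.377).

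Chaperones and folding enzymes of the ER had, of all the gene lists examined, the largest share of members higher at an unadjusted p under 0.05. Of 43 tested genes, 37 had positive differences (50.9% of all genes did), the median was 0.074, and 24 (55.8%) were higher and 0 lower at an unadjusted p under 0.05, against 5.77% and 4.39% of all genes. One member was called. Ero1lb, an oxidase that renews disulfide bonds, ran from 669 to 833 (median 713) in HT lithium libraries and from 574 to 703 (median 638) in HT vehicle libraries and rose by 0.18 ± 0.044, with an adjusted p just under the limma threshold. Hyou1, a large chaperone of the ER lumen, ran from 3603 to 4413 (median 3992) in HT lithium libraries and from 3201 to 4068 (median 3544) in HT vehicle libraries; its difference of 0.17 ± 0.042 missed the threshold (limma adjusted p = 0.0509). Dnajb9, a co-chaperone of ER-associated degradation, had a difference of 0.13 ± 0.035 (limma adjusted p = 0.116). The remaining members below were named after their values were seen. The central chaperone Hspa5 (BiP) had a difference of 0.24 ± 0.074, Hsp90b1 one of 0.12 ± 0.036, the protein disulfide isomerase Pdia6 one of 0.15 ± 0.049, the calcium-binding chaperone Calr one of 0.12 ± 0.041, the secreted stress factor Manf one of 0.24 ± 0.071 and Sdf2l1, a partner of Hspa5, one of 0.33 ± 0.099. None of these 6 was called. The members at an unadjusted p under 0.05 numbered 7 in females alone (3.41% of all genes were higher at that p) and 19 in males alone (3.31% of all genes). For the difference between the sexes 1 of 43 had such a p, on the side of males, as did 1.23% of all genes. With the striatal-rich libraries left out, 22 of 43 were higher at that p.

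The promoters of this group were searched for the ER stress response element, spelled CCAAT, then 9 bases of any kind, then CCACG, on both strands of the window from 250 bases before to 50 bases after each start in RefSeq (GRCm38.p6). It was found in 9 of 35 promoters of the list (25.7%; 32 genes had a promoter in the table) and in 39 of 32851 promoters of all genes (0.119%). Promoter letters do not depend on the libraries, so these shares describe how the list was chosen and not an effect of lithium. The 9 genes were Calr, Canx, Creld2, Derl3, Dnajc3, Hsp90b1, Hspa5, Pdia6 and Syvn1. All but Derl3 (-0.14 ± 0.172, limma adjusted p = 0.844) were higher at an unadjusted p under 0.05. Among the 23 members with a promoter and no match 10 were higher at that p, and among the 11 members with no promoter given 6 were. Of all genes 5.77% were higher at that p. The 3 promoters with a match and the smallest p are shown because they show where the element sits in the chaperone genes; capitals mark the element, on either strand. They lie at chr10:86705395-86705694 (minus strand, Hsp90b1, 2 matches), chr2:34771840-34772139 (plus strand, Hspa5) and chr12:17266339-17266638 (plus strand, Pdia6). A match describes the letters and not a bound site.
Hsp90b1: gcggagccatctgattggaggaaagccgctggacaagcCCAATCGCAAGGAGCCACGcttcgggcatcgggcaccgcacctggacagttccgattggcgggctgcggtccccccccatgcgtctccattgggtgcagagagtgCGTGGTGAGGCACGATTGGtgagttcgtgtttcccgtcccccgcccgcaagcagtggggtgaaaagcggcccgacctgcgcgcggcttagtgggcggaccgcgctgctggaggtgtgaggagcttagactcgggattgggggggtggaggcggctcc
Hspa5: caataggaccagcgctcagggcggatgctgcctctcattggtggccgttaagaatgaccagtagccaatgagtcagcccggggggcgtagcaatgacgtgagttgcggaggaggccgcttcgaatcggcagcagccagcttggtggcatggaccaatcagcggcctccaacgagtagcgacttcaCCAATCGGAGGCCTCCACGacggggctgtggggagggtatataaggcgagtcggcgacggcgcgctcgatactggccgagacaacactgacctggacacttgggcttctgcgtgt
Pdia6: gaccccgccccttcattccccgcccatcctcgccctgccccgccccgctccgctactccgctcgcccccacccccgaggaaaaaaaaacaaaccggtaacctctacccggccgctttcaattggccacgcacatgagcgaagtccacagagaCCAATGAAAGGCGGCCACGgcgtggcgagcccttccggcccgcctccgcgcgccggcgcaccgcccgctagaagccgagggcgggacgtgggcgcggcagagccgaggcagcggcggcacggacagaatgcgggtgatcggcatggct

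Some called genes outside this list act in the ER or between ER and Golgi. They were grouped by function after the calls were seen, and no list of such genes was tested. Alg11, a mannosyltransferase that builds the N-glycan precursor on the ER, ran from 1078 to 1309 (median 1143) in HT lithium libraries and from 874 to 1095 (median 1002) in HT vehicle libraries and rose by 0.25 ± 0.049 (limma adjusted p = 0.0162). Trappc3, a subunit of the TRAPP complex that tethers vesicles between ER and Golgi, ran from 1502 to 1657 (median 1566) in HT lithium libraries and from 1367 to 1501 (median 1447) in HT vehicle libraries. The 2 groups did not overlap, and Trappc3 rose by 0.13 ± 0.027 (limma adjusted p = 0.0193). Tmx2, a thioredoxin-related membrane protein of the ER, rose by 0.19 ± 0.046, with an adjusted p just under the limma threshold. Colgalt1, which adds galactose to collagen in the ER, fell by 0.13 (SE 0.029, limma adjusted p = 0.0268). Hsd17b12, which lengthens fatty acids at the ER membrane, rose by 0.12 ± 0.025 (limma adjusted p = 0.0162).

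The interferon response lay on the lower side. Of 61 tested genes, 51 had negative differences (50.9% of all genes had a positive one), the median was -0.16, and none was called. At an unadjusted p under 0.05, 0 were higher and 17 (27.9%) lower, against 5.77% and 4.39% of all genes. Oasl2, a member of the oligoadenylate synthetase family, ran from 53.0 to 119 (median 87.1) in HT lithium libraries and from 70.2 to 201 (median 131) in HT vehicle libraries, a difference of -0.62 ± 0.155 (limma adjusted p = 0.057). The difference of Oasl2 was -1.06 in females and -0.18 in males. Oas1a, which makes the activator of RNase L, had a difference of -0.68 ± 0.192 at low levels of 7.54 to 25.4 in HT lithium libraries and 15.9 to 31.5 in HT vehicle libraries (limma adjusted p = 0.126). Rsad2, an antiviral enzyme, ran from 23.3 to 41.5 in HT lithium libraries and from 27.8 to 61.0 in HT vehicle libraries, with -0.47 ± 0.147 (limma adjusted p = 0.188). All 3 genes overlapped between the groups. The count of 17 depended on HT lithium female 1: without it 10 members were lower at that p, and with library weights 8 were. With the striatal-rich libraries left out, it was 14. Interferon-stimulated genes are expressed in vessels, meninges and macrophages as well as in neurons and glia; the meningeal markers summed to between 21562 and 36266 in HT lithium libraries and between 23819 and 43883 in HT vehicle libraries, and their part in this result was not tested. Microglial markers summed to 10858 to 14463 in HT lithium libraries and 10056 to 14693 in HT vehicle libraries.

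A core of the interferon-stimulated response element, spelled GAAA, then 2 bases of any kind, then GAAA, was found on either strand of 25 of 59 promoters of this list (42.4%; 48 genes had a promoter) and of 1131 of 32851 promoters of all genes (3.44%). These shares, too, describe how the list was chosen and not an effect of lithium. Among the tested members, 7 of 23 with a match, 8 of 23 with a promoter and no match and 2 of 15 with no promoter in the table were lower at an unadjusted p under 0.05. Of all genes 4.39% were lower at that p. The 3 promoters with a match and the smallest p are shown so that the position of the element can be read, with capitals for the element on either strand. They lie at chr5:120907476-120907775 (minus strand, Oas1a, 2 overlapping matches), chr12:26456403-26456702 (minus strand, Rsad2) and chr3:142559794-142560093 (plus strand, Gbp3, a guanylate-binding GTPase, 2 overlapping matches).
Oas1a: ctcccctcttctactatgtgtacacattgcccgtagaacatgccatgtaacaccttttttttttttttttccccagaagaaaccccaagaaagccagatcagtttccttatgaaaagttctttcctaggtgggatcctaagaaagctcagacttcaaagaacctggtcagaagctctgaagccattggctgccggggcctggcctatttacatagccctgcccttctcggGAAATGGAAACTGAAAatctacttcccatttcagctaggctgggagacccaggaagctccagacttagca
Rsad2: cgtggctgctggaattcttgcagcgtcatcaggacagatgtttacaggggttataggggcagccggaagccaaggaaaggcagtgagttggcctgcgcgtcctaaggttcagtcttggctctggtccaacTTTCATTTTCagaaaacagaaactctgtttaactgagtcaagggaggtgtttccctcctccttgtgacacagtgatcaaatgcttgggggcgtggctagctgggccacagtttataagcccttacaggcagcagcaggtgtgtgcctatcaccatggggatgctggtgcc
Gbp3: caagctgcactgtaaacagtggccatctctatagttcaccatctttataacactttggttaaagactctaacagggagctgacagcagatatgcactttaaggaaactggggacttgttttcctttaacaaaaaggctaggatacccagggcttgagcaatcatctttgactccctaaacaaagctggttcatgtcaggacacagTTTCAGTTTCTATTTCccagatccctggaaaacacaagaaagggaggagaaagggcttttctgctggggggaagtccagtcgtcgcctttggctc

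**Figure D4:**
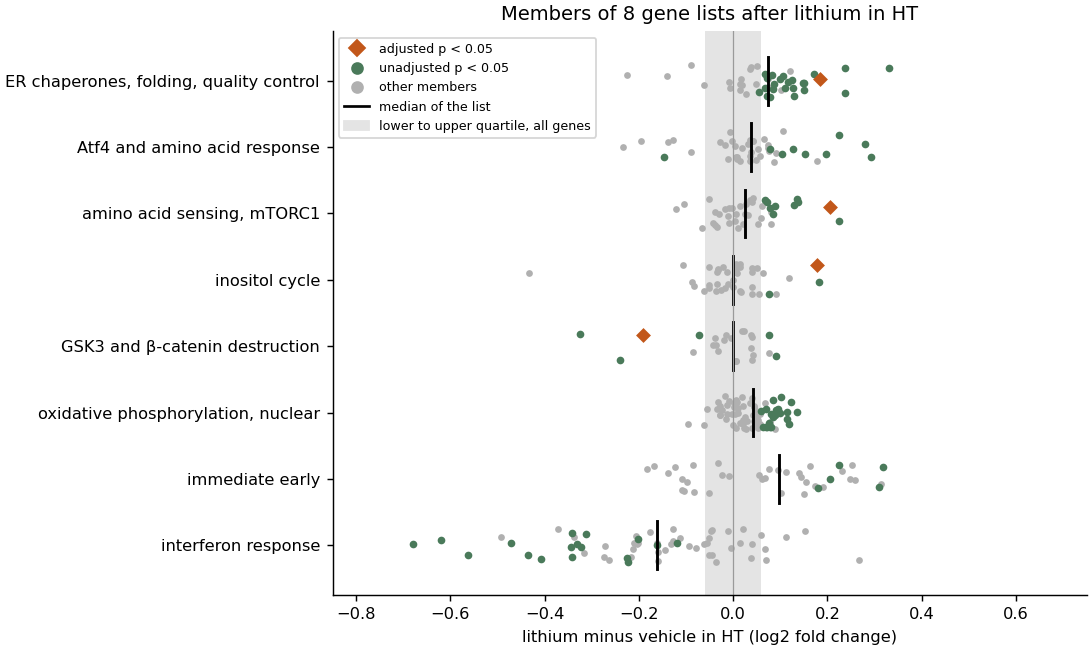
Differences, lithium minus vehicle in HT, of the tested members of 8 gene lists on the log2 scale; each point is a gene, diamonds are called genes, black ticks are list medians and the grey band spans the lower to the upper quartile of all genes. The median of the ER list lies at 0.074 and that of the interferon list at -0.16, while the inositol and GSK3 lists have medians of 0.00036 and 0.0007 with single called genes outside the band.

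Further called genes encoded a lysosomal enzyme, a lipid enzyme and factors of other processes. Naglu, a lysosomal enzyme of heparan sulfate breakdown, ran from 137 to 213 (median 164) in HT lithium libraries and from 187 to 231 (median 196) in HT vehicle libraries and fell by 0.32 (SE 0.071, limma adjusted p = 0.0326). Sgpp2, which removes the phosphate of sphingosine 1-phosphate, rose by 0.32 ± 0.068 (limma adjusted p = 0.0193). Chmp6, a subunit of the ESCRT-III membrane scission machinery, fell by 0.16 (SE 0.037), and the deubiquitinase Usp11 and the p97 cofactor Ubxn1 fell by 0.15 (SE 0.035) and 0.14 (SE 0.034). These last 3 belong to the 11 genes just under the threshold.

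Some called genes of cilia and centrioles appeared on both sides. These were also grouped after the calls were seen, and no list of such genes was tested. Cfap300, needed to assemble ciliary dynein arms, ran from 201 to 260.1 (median 238) in HT lithium libraries and from 151 to 201 (median 181) in HT vehicle libraries and rose by 0.37 ± 0.072 (limma adjusted p = 0.0138). The lowest lithium library alone lay within the vehicle range. Rpgrip1l, a protein of the ciliary transition zone, rose by 0.22 ± 0.047 (limma adjusted p = 0.0205), and Crocc, the rootletin of the ciliary root, rose by 0.26 ± 0.061 (limma adjusted p = 0.0494). Cntln, a centriolar linker protein, fell by 0.22 (SE 0.052), with an adjusted p just under the limma threshold. The choroid plexus and ependymal markers, cells rich in motile cilia, summed to between 227 and 355 in HT lithium libraries and between 233 and 626 in HT vehicle libraries; their part in these differences was not tested.

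Secreted ligands and receptors included some of the larger called differences. Fstl4, a secreted follistatin-like protein, ran from 768 to 1003 (median 907) in HT lithium libraries and from 615 to 796 (median 713) in HT vehicle libraries. It rose by 0.32 ± 0.057 (limma adjusted p = 0.00482), and 9 of 10 lithium libraries lay above every vehicle library. Angpt1, the ligand of the vascular receptor Tie2, ran from 286 to 369 (median 333) in HT lithium libraries and from 351 to 455 (median 408) in HT vehicle libraries and fell by 0.31 (SE 0.066, limma adjusted p = 0.0193). For Angpt1 1 vehicle library reached into the lithium range. Ptprk, a receptor tyrosine phosphatase, fell by 0.16 (SE 0.037, limma adjusted p = 0.0391). Mas1, an angiotensin peptide receptor, ran from 610.3 to 913 in HT lithium libraries and from 375 to 697 in HT vehicle libraries and rose by 0.46 ± 0.107 (limma adjusted p = 0.0475), and the scaffold gene Iqgap2 rose by 0.44 ± 0.101 (limma adjusted p = 0.037).

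The called genes beyond the 12 of smallest p in each direction were named after their values were seen. Of the remaining called genes, Ncl, the major nucleolar protein nucleolin, did not overlap between groups: it ran from 7219 to 7924 (median 7683) in HT lithium libraries and from 7928 to 8929 (median 8227) in HT vehicle libraries and fell by 0.12 (SE 0.026, limma adjusted p = 0.0193). Mcm8, a helicase of homologous recombination, ran from 89.6 to 132 (median 109.6) in HT lithium libraries and from 111 to 170 (median 152) in HT vehicle libraries and fell by 0.38 (SE 0.086, limma adjusted p = 0.0336). Pnma1, a neuronal antigen of paraneoplastic disease, fell by 0.38 (SE 0.078, limma adjusted p = 0.0162) and the zinc finger gene Zfp316 by 0.23 (SE 0.050, limma adjusted p = 0.0193). Narfl, a factor of cytosolic iron-sulfur assembly, ran from 823 to 918 (median 851) in HT lithium libraries and from 682 to 812 (median 758) in HT vehicle libraries and rose by 0.19 ± 0.040 (limma adjusted p = 0.0193) without overlap. Ociad2 rose by 0.20 ± 0.040 (limma adjusted p = 0.0162), the mitochondrial genes Echdc2 and Rhot2 by 0.37 ± 0.081 (limma adjusted p = 0.0268) and 0.21 ± 0.049 (limma adjusted p = 0.049), and BC030500 fell by 0.28 (SE 0.062, limma adjusted p = 0.0348). Pdrg1, Zfp963, Cage1, Noxred1 and 1600014C10Rik also rose, all with an adjusted p just under the threshold; Noxred1 had the largest difference of the 40, 0.62 ± 0.148, at levels of 41.9 to 92.1 in HT lithium libraries and 23.02 to 54.7 in HT vehicle libraries. Rhot2 shares exonic sequence on its own strand with Wdr90 and Gm20683, so their reads may be divided uncertainly.

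Nuclear genes of oxidative phosphorylation had small differences on the higher side. Of 77 genes, all tested, 61 had positive differences (median 0.043), and none was called. At an unadjusted p under 0.05, 22 (28.6%) were higher and 0 lower, against 5.77% and 4.39% of all genes. Cycs, the somatic cytochrome c gene, ran from 3108 to 3648 (median 3373) in HT lithium libraries and from 2848 to 3330 (median 3109) in HT vehicle libraries, a difference of 0.11 ± 0.033 (limma adjusted p = 0.136). The complex I subunit Ndufa8 had 0.11 ± 0.037 (limma adjusted p = 0.205) and the ATP synthase subunit Atp5k 0.12 ± 0.039 (limma adjusted p = 0.209). The 13 genes encoded in the mitochondrial genome did not show this side, with 7 positive and 6 negative differences (median 0.0033). With the striatal-rich libraries left out, 15 nuclear genes were higher at an unadjusted p under 0.05.

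None of the neurotrophin and activity genes was called, and some of the activity genes varied widely between libraries. Of 19 tested neurotrophin genes 14 had positive differences (median 0.051). At an unadjusted p under 0.05, 4 (21.1%) were higher, against 5.77% of all genes. They were the receptor Ntrk3 (0.13 ± 0.045, limma adjusted p = 0.246) and the sorting receptor Sorcs3 (0.15 ± 0.066, limma adjusted p = 0.381). The others were the receptor Ntrk2 (0.06 ± 0.027, limma adjusted p = 0.415) and the ligand Bdnf (0.23 ± 0.101, limma adjusted p = 0.423). Without HT vehicle female 4 the 4 became 2. Bdnf ran from 883 to 1398 (median 1121) in HT lithium libraries and from 724 to 1360.5 (median 918) in HT vehicle libraries, with 0.38 in females and 0.07 in males. Of 38 genes in a mixed list of immediate early and other activity-induced genes, 24 had positive differences (median 0.098). At an unadjusted p under 0.05, 5 (13.2%) were higher, against 5.77% of all genes, Nptx2, Vgf and Bdnf with the smallest p. The sexes had medians of opposite sign in this list: its median difference was 0.295 in HT females, with 35 of 38 positive, and -0.19 in HT males, with 12 of 38 positive, while in WT-labelled mice the pooled median was 0.294. For the difference between the sexes no gene was called and 3 of 38 members (7.89%) had an unadjusted p under 0.05 on the side of females, as did 1.09% of all genes. Arc, a gene of this kind induced at synapses, ran from 756 to 9484 in HT lithium libraries and from 860.5 to 14664 in HT vehicle libraries, so single libraries spanned far more than the groups did; Arc was named after its values were seen.

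No gene of the circadian clock was called, and the 3 of smallest p had negative differences. Dbp had -0.24 ± 0.072 (limma adjusted p = 0.158), with levels of 1134 to 1708 (median 1418) in HT lithium libraries and 1412 to 1814 (median 1700) in HT vehicle libraries. Nr1d1 had -0.27 ± 0.097 (limma adjusted p = 0.264) and Nr1d2 -0.07 ± 0.031 (limma adjusted p = 0.379). In all, 0 of 23 clock genes were higher and 4 (17.4%) lower at an unadjusted p under 0.05, against 5.77% and 4.39% of all genes. The list's median was -0.0047. The labels used here give no time of dissection. Of 50 genes of the glutamatergic postsynapse 5 (10%) were higher and 1 (2%) lower at that p, and of 28 tested GABA signalling genes 1 was higher and 1 lower. The shares of all genes given above apply to these 2 lists too.

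The pooled result was then set within each sex. Neither sex alone gave a called gene: the smallest limma adjusted p was 0.0557 in females, with 1009 genes (5.99%) at an unadjusted p under 0.05, and 0.346 in males, with 978 (5.81%). All 40 called genes had the same sign in both sexes, compared with 61.2% of all genes, and 39 in females and 38 in males had an unadjusted p under 0.05; the pooled call itself favours such genes. For the difference of the lithium effect between females and males limma called 0 genes, with 390 (2.32%) at an unadjusted p under 0.05. The widest gap among the 12 higher genes was that of Fstl4, 0.42 in females and 0.22 in males, which was not called. A difference between the sexes was measured less precisely than the pooled one, with a median SE over all genes of 0.145 against 0.0723, so a p above the threshold does not show that the sexes responded alike.

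The WT-labelled libraries share no sample with the comparison and give the same contrast in another genotype. Both contrasts came from the same model over all 59 libraries, so each gene had the same SE in both. A call in HT thus favours genes of small SE, which favours a small p in WT too. Lithium against vehicle in WT-labelled mice called 36 genes (0.214%), 22 higher (0.131%) and 14 lower (0.0831%), with 2006 (11.9%) at an unadjusted p under 0.05. All 40 genes called in HT had the same sign in WT, against 68.6% of all genes, and 29 (72.5%) had the same sign with an unadjusted p under 0.05 in WT, against 10.5% of all genes. Ctnnb1 had -0.17 ± 0.032 in WT (limma adjusted p = 0.00564), Castor2 0.20 ± 0.035 (limma adjusted p = 0.00488) and Umps 0.19 ± 0.035 (limma adjusted p = 0.00564). The genes called in both genotypes were these 3, Trappc3, Zfp316, BC030500 and Pdrg1, which make 17.5% of the HT calls and 19.4% of the WT calls. Impa1 had 0.13 ± 0.036 in WT (limma adjusted p = 0.102) and Slc5a3 0.19 ± 0.051. At the other end Alg11 had 0.02 ± 0.049 in WT, Mcm8 -0.07 ± 0.086 and Hsd17b12 0.04 ± 0.025. Across the 40 genes the Pearson r of the HT and WT differences was 0.916, and over all genes 0.347. The 40 were chosen by p in HT, and none had an HT difference under 0.12 in size, which favours a high r. Genes are also not independent replicates, so this is a description. The 12 tested striatal markers had positive differences in WT too (median 0.28). In 38 of the 40 the WT difference was the smaller one, which the choice by p in HT favours. For the difference of the lithium effect between the genotypes limma called 0 genes, with 386 (2.29%) at an unadjusted p under 0.05, so no gene was shown to respond in HT alone, and equal responses were not shown either.

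**Figure D5:**
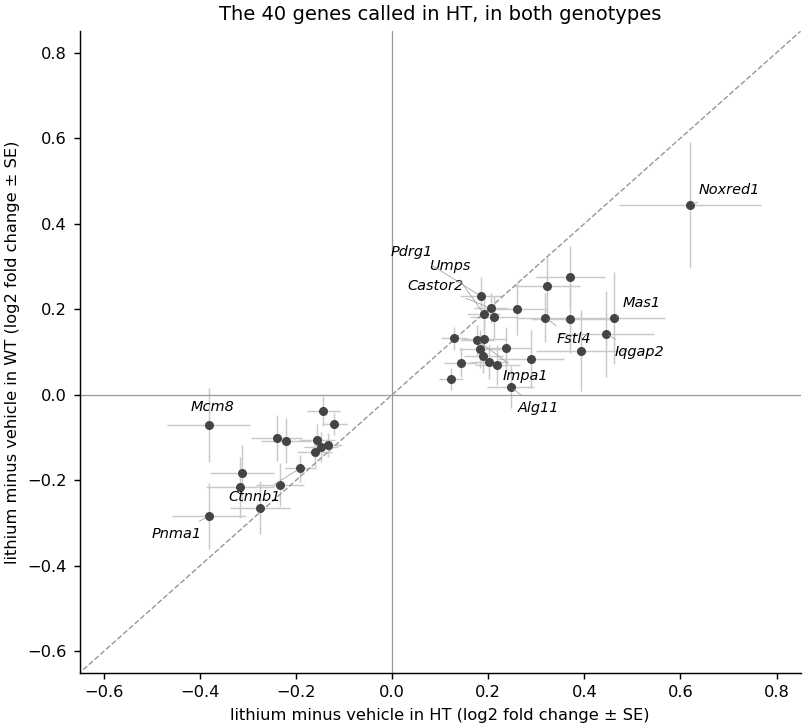
Differences, lithium minus vehicle, of the 40 genes called in HT: HT on the horizontal and WT on the vertical axis, log2 scale, with bars of 1 SE and a dashed line of equality. All 40 points lie in the quadrants of equal sign, and 38 lie nearer to the horizontal axis than the dashed line; Alg11 and Mcm8 lie close to 0 in WT.

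Several gene lists lay on the same side in WT. ER chaperones had a median of 0.070 in WT, with 22 of 43 (51.2%) higher at an unadjusted p under 0.05 against 6.29% of all genes in that contrast. Nuclear oxidative phosphorylation had 28 of 77 (36.4%) higher and the interferon list 13 of 61 (21.3%) lower, against 5.62% of all genes lower. Meningeal markers had 10 of 12 lower in WT at that p (median -0.44) and 1 of 12 in HT (median -0.18), and blood markers 3 of 5 lower in WT. Their part in the interferon values of WT was not tested. For the difference between genotypes 1 of 43 ER genes had an unadjusted p under 0.05, with the difference more positive in HT, and so had 2 of 61 interferon genes, 1 in each direction. Of all genes 1.35% had such a p in the positive and 0.944% in the negative direction.

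The HT lithium libraries were also set against the 9 HT fluoxetine libraries, which had another drug in the milk; the lithium libraries are shared with the comparison above, and the vehicle ones are not. Limma called 13 genes (0.0772%), 9 higher (0.0534%) and 4 lower (0.0238%) in lithium libraries, with 1698 (10.1%) at an unadjusted p under 0.05. Castor2 was at 0.23 ± 0.037 relative to fluoxetine (adjusted p = 0.000813), Fstl4 at 0.27 (adjusted p = 0.0447) and Cfap300 at 0.35 (adjusted p = 0.0322), while Mcm8 fell by 0.50 (adjusted p = 0.00537) and Ncl by 0.12 (adjusted p = 0.0322). Rbm28, a factor of ribosome assembly (0.35), Cog6, a subunit of a Golgi tethering complex (0.17), and Gm5124 (0.26) were also higher, and Purb, a binder of purine-rich DNA (-0.14), and the Mediator kinase Cdk19 (-0.15) lower. Slc5a3, not called against vehicle, was called here, with 0.25 (adjusted p = 0.0322). Impa1 stood at 0.11 (adjusted p = 0.249) and Ctnnb1 at -0.12 (adjusted p = 0.122) relative to fluoxetine, neither called. The count of 13 became 5 without HT lithium male 4, 6 without HT lithium female 3 or male 3, 8 without HT lithium female 2 or female 4 and 25 without HT lithium female 5. It became 4 without HT fluoxetine male 3, 5 without HT fluoxetine female 1 or female 3, 6 without HT fluoxetine female 2, 7 without HT fluoxetine male 2 and 8 without HT fluoxetine female 4 or male 1. Myelin markers had negative differences between lithium and fluoxetine libraries for 15 of 15 genes (median -0.30), 7 of them at an unadjusted p under 0.05 against 5.03% of all genes; their part in these calls was not tested.

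Single libraries mattered for the count of called genes. When each of the 20 libraries was left out in turn, the count of 40 ran from 12, without HT vehicle female 4, to 63, without HT vehicle female 3, the vehicle library of high striatal markers. It also moved by over 1.5 times without HT lithium female 1 (17), female 2 (16), female 3 (22), male 1 (25), male 2 (19) and male 4 (25) and without HT vehicle female 5 (25) and male 4 (24). Ctnnb1, Castor2, Fstl4, Umps, Cfap300, Ociad2, Alg11, Impa1, Pnma1 and Hsd17b12 were called in all 20 of these fits. Among the other 14 of the 24 genes of smallest p, Trappc3 lost its call without HT lithium female 1 (limma adjusted p = 0.0538), Narfl without HT vehicle female 4 (0.0512) and Angpt1 without HT lithium female 2 (0.0532). Ncl lost it without HT lithium female 2 or HT vehicle female 4 (up to 0.0663), and Sgpp2 without HT lithium male 1 or male 2 or HT vehicle female 4 (up to 0.0556). Zfp316 lost it without HT lithium female 1, female 2 or male 4 or HT vehicle female 4 (up to 0.071). Colgalt1 kept its call in 14 fits, Naglu in 12, Tle3 in 11, BC030500 in 10, Ptprk in 9, Mcm8 in 8 and Cntln in 4. Every other called gene lost its call in at least 1 fit; Ero1lb and Tmx2 were called in 4 of the 20. HT vehicle female 4 ended 12 of the 24 calls and HT lithium female 1 ended 10. Without all 7 libraries of high striatal markers in the series, 23 genes were called, 14 of them among the 40; Ctnnb1 then stood at -0.18 (limma adjusted p = 0.0268) and Castor2 at 0.25 (limma adjusted p = 0.000364).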

How the data were processed

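RNA was measured in 59 prefrontal cortex libraries, 20 of which enter the comparison described, made with a stranded poly(A) kit per the labels' protocols. The submitters' processing notes list DESeq2 1.19.11, Salmon 0.11.2, the GRCm38 build and R 3.6.0, without saying what each did. The values are a normalized signal per gene and library, as the authors deposited them. Values of low genes came within 0.01 of a whole multiple of a single step in 4.67 to 24.9% of cases per library, so reads could not be recovered, depth is unknown and no counting interval is given. The planned test for raw counts was therefore replaced by limma 3.58.1, run with statmod 1.5.0 under R 4.3.3, after a log2(value + 1) step.

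Genes with a mean of 10 or more over all libraries were tested, 16839 of 51456, of which 17301 were at 0 throughout. Symbols came from matching the deposited identifiers to a separate gene name reference, which gave 51285 identifiers a symbol and left 171 without. A model with 12 group means over 59 libraries was fitted with trended, robust shrinkage, and contrasts averaged the sexes. P-values were adjusted by Benjamini-Hochberg over all genes tested. Scripts were tested on simulated data with known changes.

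Named genes were Chd8, the 12 higher and 12 lower genes of smallest p whose mean was 50 or more, the 3 of smallest p in each list described, and in other comparisons the called genes, at most 6 per direction. A gene that meets the rule is not reported here. Other genes, such as Gsk3a, Gsk3b, Btrc, Fbxw11, Axin2 and Phgdh, were named after their values were seen. The gene lists, the comparison and these rules were chosen with earlier results of these data known. Alternatives covered other shrinkage, TMM factors, no filter, a pseudocount of 0.5, fits of fewer groups, library weights, tissue covariates, the first principal component, a replicate block and leaving out libraries. Gene positions are from GENCODE and promoters from RefSeq, both on GRCm38. Where the text says that a library number is left out, it is the replicate number of the label within its sex.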

Additional observations from a re-analysis of the deposited data

Results flagged for a closer look

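Of 82 groups of named-gene values, 2 held a library far from the other 9 by Dixon's ratio; chance marks about 5 percent of groups. Narfl was at 918.251 in HT lithium male replicate 1, with the nearest of the other HT lithium libraries at 864.332 (ratio 0.569). 1600014C10Rik was at 670.537 in HT vehicle male replicate 3, with the nearest of the other HT vehicle libraries at 780.451 (ratio 0.597). Narfl was higher in HT lithium than in HT vehicle libraries, and the library far from the others lay on the outer side of the gap. For 1600014C10Rik, which was higher in HT lithium libraries too, the library lay at the low end of the vehicle group.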

How the results depend on the processing

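The 40 genes called for lithium against vehicle in HT became 18 without the filter on low values, 10 with library weights, 122 with the olfactory bulb mitral markers as a covariate, 174 with the first principal component as a covariate and 23 with the 7 striatal-rich libraries left out. Both fits of fewer groups, that of the 4 HT lithium and vehicle groups and that of the 20 libraries with sex as an additive block, called 0. Leaving out 1 library at a time gave 12 to 63. Other shrinkage gave 33, TMM factors 43, a pseudocount of 0.5 gave 40 and the striatal covariate 40. The 13 genes of lithium against fluoxetine became 6 without the filter, 5 with only the groups compared, 288 with library weights, 128 with the mitral covariate and 203 with the first principal component, and 4 to 25 with 1 HT lithium, vehicle or fluoxetine library left out; the omission of fluoxetine libraries was chosen after seeing the data. The tests of the difference between the sexes and between the genotypes called 0 genes under every alternative run, which left out no single WT library. Values of single named genes kept their direction in every alternative run; 831 such values kept their side of the threshold and 481 lost the call. The cause of these differences was not tested, and the fits of fewer libraries also had fewer samples.

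The replicate numbers were not taken to pair the libraries, because not every same-number correlation of deviations was over 0.1: 7 of 10 were (range -0.135 to 0.553), and 3 of 10 lithium libraries correlated best with the vehicle library of their own number. With a replicate block 59 genes were called, 38 of them among the 40, and 16 for lithium against fluoxetine.

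Depth is unknown, the dissections varied in striatal and olfactory bulb RNA, and dams are not named, so all calls rest on the spread between libraries. List counts are descriptions at an unadjusted p; over libraries left out in turn they ran from 18 to 24 for ER chaperones and from 10 to 21 for interferon genes, and with library weights they were 20 and 8.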
